A study of Homo sapiens with 66 samples.

Results

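The mitochondrial genome carries its own genes, and their RNA was measured here in human THP-1 cells, a monocytic leukemia line, after Cas9 targeting of ADAR, of hnRNPC or of both. The genes were taken as all those the annotation places on the mitochondrial chromosome (GRCh37, chrM, 16569 bases). They number 37 of the 57820 genes in the count tables, namely 13 mRNAs, 2 rRNAs and 22 tRNAs, and each was found in both tables by its Ensembl identifier.

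Mitochondrial DNA is transcribed from both strands into long RNAs that cover most of the circle. The tRNAs lie between the other genes, and their excision releases the separate mRNAs and rRNAs. The 13 mRNAs encode core subunits of respiratory complexes I, III and IV and of ATP synthase, all other subunits being encoded in the nucleus, and the 2 rRNAs form the core of the mitochondrial ribosome. Transcription of both strands can yield double-stranded RNA, which is normally broken down in the matrix by a complex holding the exoribonuclease PNPT1 and the helicase SUPV3L1, and ADAR is an enzyme that edits adenosines in double-stranded RNA and hnRNPC a nuclear protein that binds uridine tracts of transcripts, among them those of Alu elements.

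The study sequenced rRNA-depleted total RNA of 2 experiments, with 66 libraries in all. The first, a time course, used a single-cell clone of Cas9-transgenic THP-1 cells that lack STING, nucleofected with guide RNAs in pairs: CTRL with CTRL (called CTRL), CTRL with hnRNPC (hnRNPC-targeted), CTRL with ADAR (ADAR-targeted), hnRNPC with ADAR (ADAR+hnRNPC-targeted) or CTRL with GFP (GFP-targeted), each harvested on days 3, 4 and 5 with 3 libraries. CTRL cells treated with IFN-α and harvested on day 4 made up the remaining group, so that the time course had 16 groups and 48 libraries. The second, a fractionation, used a Cas9-transgenic clone of wild-type THP-1 cells on day 4, with 2 libraries in each of 9 groups (18 libraries): whole cells and the cytosolic fraction, which digitonin releases, for CTRL, hnRNPC-, ADAR- and ADAR+hnRNPC-targeted cells, and the nuclear and mitochondria-enriched remainder for hnRNPC-targeted cells. Both lines were single clones, and the study describes its replicates as separate experiments, while the labels number the libraries without naming an experiment or a day of work.

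Libraries held 95107690 to 152829008 gene counts in the time course and 49666958 to 73873756 in the fractionation, and levels are given as CPM, counts relative to the library total scaled by TMM. HNRNPC itself was lower in each hnRNPC-targeted group of the time course, by log2 fold changes between -0.99 and -1.33, and by -0.45 to -0.84 in the fractionation. The ADAR transcript hardly moved under ADAR targeting in the time course (-0.19, -0.14 and -0.01 over days 3, 4 and 5) and was higher on day 5 of ADAR+hnRNPC targeting (1.84), as it was with IFN-α (1.59), while in whole cells of the fractionation it stood at -0.86 in the ADAR-targeted group. The share of G at candidate A-to-I editing sites outside chrM did separate the groups of the time course, at 1.89% to 3.24% in libraries with ADAR targeted and at 4.31% to 9.29% in all others. All 8 monocytic markers that were looked up were measured, with a summed level of 335 to 836 CPM in the time course against 1.97 to 6.49 CPM for 5 markers of other cell types.

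Counts from the 37 genes made up 0.175% to 0.956% of the gene counts of a time-course library. A gene entered the tests where its average log2 CPM was at least 0.5, which 19 of the 37 passed in the time course (13 mRNAs, 2 rRNAs and 4 tRNAs) and 17 in the fractionation (12 mRNAs, 2 rRNAs and 3 tRNAs). MT-ATP8 and MT-TY passed in the former experiment alone.

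The tRNAs that were counted are those of asparagine (MT-TN), cysteine (MT-TC), tyrosine (MT-TY) and proline (MT-TP). They are shown with the tRNA of alanine (MT-TA), a neighbour of MT-TN on the same strand that hardly gave counts; each is printed 5′ to 3′ on the minus strand of GRCh37, with the anticodon in capitals.
MT-TN, chrM:5657-5729: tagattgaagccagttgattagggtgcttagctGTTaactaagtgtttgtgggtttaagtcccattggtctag
MT-TC, chrM:5761-5826: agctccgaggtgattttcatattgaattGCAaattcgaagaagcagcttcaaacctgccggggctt
MT-TY, chrM:5826-5891: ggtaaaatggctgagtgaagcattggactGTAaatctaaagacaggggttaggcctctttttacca
MT-TP, chrM:15956-16023: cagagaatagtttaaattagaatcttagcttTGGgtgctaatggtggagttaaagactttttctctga
MT-TA, chrM:5587-5655: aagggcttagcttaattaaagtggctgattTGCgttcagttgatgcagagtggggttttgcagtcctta

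All 4 counted tRNAs are among the 8 tRNA genes on the minus strand, and none of the 14 tRNA genes on the plus strand passed the filter. Each also borders bases that belong to no gene: 31 bases separate MT-TN from MT-TC, 12 follow MT-TY, and 546 follow MT-TP up to the end of the reference. MT-TF (576 free bases before it) and MT-TK (25) border such bases as well, lie on the plus strand and did not pass. The other 4 tRNA genes of the minus strand border 1 to 7 such bases, MT-TA having 7 on the side away from MT-TN, and did not pass either. The 18 tRNAs that failed never exceeded 1.20 CPM in the time course, the level of MT-TT in its highest library, and MT-TA lay between 0.128 and 0.882 CPM. The library kit keeps strand, but whether strand was used in counting is not given in the sources used here, so that reads of a minus-strand gene and of the RNA opposite to it cannot be told apart. The same holds for MT-ND6, the single mRNA on the minus strand.

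Some mRNA genes overlap, and reads within an overlap cannot be given to either gene with certainty. The 46 bases shared by the ATP synthase genes MT-ATP8 and MT-ATP6 and the 7 bases shared by the complex I genes MT-ND4L and MT-ND4 are shown in capitals on the plus strand, with 12 bases on either side. MT-ATP6 also shares 1 base with MT-CO3.
MT-ATP8/MT-ATP6, chrM:8515-8584: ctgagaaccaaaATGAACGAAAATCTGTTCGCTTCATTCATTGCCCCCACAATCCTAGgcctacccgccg
MT-ND4L/MT-ND4, chrM:10748-10778: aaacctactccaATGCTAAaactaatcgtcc

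Levels in CTRL cells differed widely between genes. Per kilobase of gene, over the 9 CTRL libraries of the time course, MT-TC stood at 1103 ± 122 CPM (SD), MT-CO1 at 814 ± 220, MT-CO3 at 618 ± 165 and MT-CO2 at 477 ± 126, the last 3 encoding subunits of cytochrome c oxidase (complex IV). MT-TP (402 ± 86.4), MT-ND3 of complex I (315 ± 51.7), MT-TY (200 ± 39.8), MT-TN (132 ± 8.85) and the large rRNA MT-RNR2 (129 ± 18.4) followed. The tRNA genes are shorter than a sequenced read, so that division by length raises their values. On this scale tRNAs cannot be ranked against mRNAs. Before the division MT-TC, of 66 bases, stood at 72.8 ± 8.06 CPM and MT-CO1 at 1255 ± 340 CPM.

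The remaining mRNAs lay far below those of complex IV. MT-ATP6 (44.4 ± 15.3 CPM per kilobase), MT-ND4L (44.2 ± 12.4), MT-ND4 (37.4 ± 12.6) and MT-CYB of complex III (35.9 ± 11.9) lay within each other's spread. MT-ND1 (25.1 ± 8.41), the small rRNA MT-RNR1 (20.2 ± 4.64), MT-ND5 (18.1 ± 5.52), MT-ATP8 (16.8 ± 6.83), MT-ND2 (10.6 ± 3.58) and MT-ND6 (8.19 ± 2.32) were lowest. Ranges of neighbours in this order ran into each other. That of MT-ND6 (5.12 to 12.2) lay below those of MT-ND1 (15.8 to 41.0) and MT-RNR1 (17.1 to 32.0). As a share of the counts of all 13 mRNAs, MT-CO1 alone took 52.6% ± 0.365 (n = 3) in CTRL cells on day 4. Nuclear copies of MT-ND2 and MT-ATP6 held 34.9% and 11.01% as many counts as the mitochondrial genes themselves, so that these genes are uncertain; for the other 11 mRNAs the figure was at most 3.09%. In the fractionation it was 36.7% for MT-ND2, 15.1% for MT-ATP6 and 30.4% for MT-ND6.

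The 13 mRNAs together varied widely between libraries of a group. Their summed level in the CTRL libraries 1, 2 and 3 was 3301, 2757 and 1665 CPM on day 3, 2586, 1620 and 1792 CPM on day 4, and 3134, 2092 and 2536 CPM on day 5. In hnRNPC-targeted cells it was 3497, 3627 and 2102 CPM on day 3, 3585, 2154 and 2115 CPM on day 4, and 2249, 1901 and 2456 CPM on day 5. ADAR+hnRNPC-targeted cells on day 5 had 1926, 1977 and 2206 CPM, the smallest SD (149 CPM) of the 16 groups. Library 1 was the highest of the 3 in each of the 6 groups of day 4, and library 3 the lowest in each of the 5 groups of day 3, so that a library's number went with its level on those days. In bulk RNA, given relative to the library total, fewer mitochondria per cell and less RNA in each mitochondrion cannot be told apart.

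**Figure D1:**
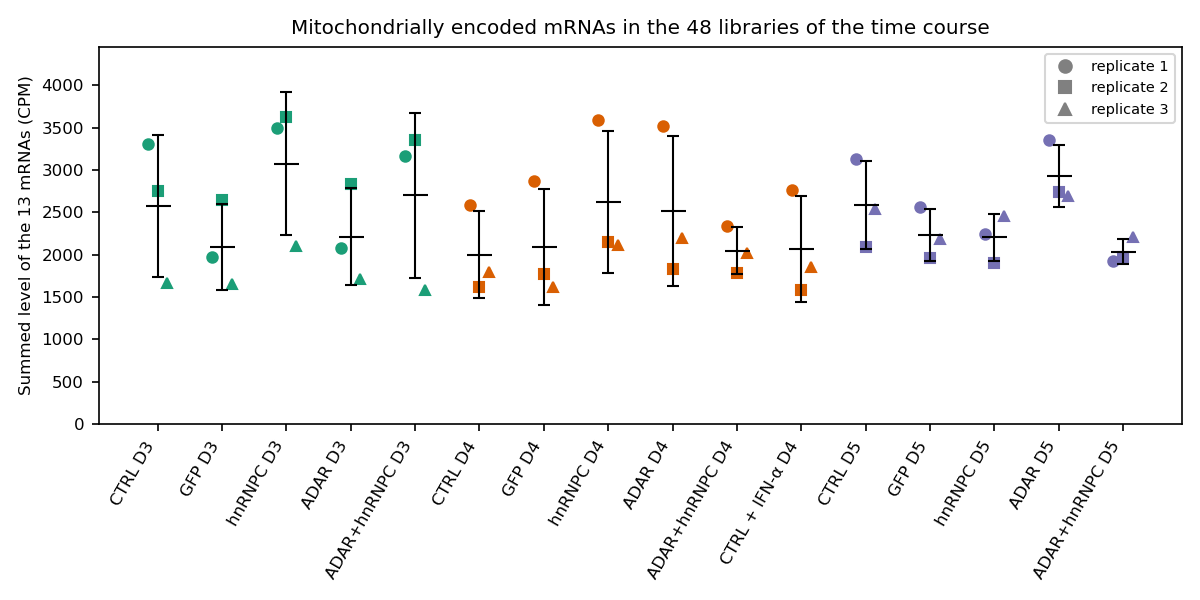
Summed level of the 13 mitochondrially encoded mRNAs (CPM, vertical axis from 0) in each of the 48 libraries of the time course, by group on the horizontal axis. Symbols mark the libraries 1 to 3, colours the day, and bars the mean and SD of a group (n = 3); library 1 is highest in every group of day 4.

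No mitochondrial mRNA was called in the time course. A call required a log2 fold change of 1 or more in either direction and, by edgeR's quasi-likelihood test, an adjusted p no higher than 0.05. The count was 0 of 13 in each of the 12 comparisons of a targeting with CTRL of its day, in the IFN-α comparison and between days in CTRL cells. Of all 13193 genes tested, hnRNPC targeting called 1.02%, 3.18% and 7.68% on days 3, 4 and 5, ADAR targeting 0%, 0.0682% and 0.296%, and ADAR+hnRNPC targeting 1.22%, 4.91% and 15.5%. GFP targeting called 0.0227%, 0% and 0.25%, IFN-α 1.32%, and CTRL cells on days 4 and 5 against day 3 0.189% and 0.682%. Of the 4 tested tRNAs none was called, and the rRNAs were called in GFP-targeted cells on day 3 alone.

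Smaller shifts passed the adjusted p alone. In hnRNPC-targeted cells on day 4, all 13 mRNAs lay above CTRL, with log2 fold changes from 0.24 to 0.79 and a median of 0.58 against 0.01 over all genes tested. MT-ND3, which encodes a small membrane subunit of complex I, stood at 162, 128 and 121 CPM against 116, 90.1 and 98.2 in CTRL, without overlap between the groups (log2 fold change 0.43 ± 0.16 SE, adjusted p = 0.0202). The tRNAs MT-TY (19.2, 15.1 and 16.5 against 13.4, 9.65 and 10.3 CPM), MT-TC (102, 79.1 and 88.2 against 60.1, 74.5 and 74.9 CPM) and MT-TN (12.8, 9.86 and 14.8 against 9.54, 9.43 and 9.44 CPM) were higher as well.

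Their log2 fold changes were 0.61 ± 0.19 (adjusted p = 0.0073), 0.36 ± 0.13 (adjusted p = 0.0232) and 0.40 ± 0.16 (adjusted p = 0.0363). These 4 of 19 genes passed where 53.5% of all genes tested did. Libraries of the same number deviated together in this comparison, with correlations from 0.12 to 0.39 for the 3 pairs. With the library number as a block, 10 of 19 passed, all higher, where 58.4% of all genes did, and with a block within each day 15 of 19, where 62.1% did. Under the latter block MT-CYB, the cytochrome b mRNA, rose by 0.71 ± 0.15 (adjusted p = 1.27e-04) and MT-CO2 by 0.54 ± 0.11 (adjusted p = 1.29e-04), while MT-CO3 (0.22 ± 0.12, adjusted p = 0.0955) did not pass.

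On day 3 of hnRNPC targeting MT-ND3 again passed the adjusted p (153, 153 and 123.4 against 127, 106 and 78.7 CPM, log2 fold change 0.46 ± 0.16, adjusted p = 0.0183), 1 gene of 19 where 39.5% of all genes did. On day 5 it did not, at 105, 103 and 124 against 124, 109 and 133 CPM. Same-numbered libraries deviated together on day 5 of hnRNPC targeting as well, and with a block within each day MT-CO3 (-0.33 ± 0.12, adjusted p = 0.0119) and MT-CO1 (-0.29 ± 0.13, adjusted p = 0.0429) fell there, 2 of 19 where 72.9% of all genes passed. With the library number as a block across days 0 did. None passed the adjusted p when ADAR alone was targeted, with medians of the 13 mRNAs of -0.29, 0.34 and 0.35 from day 3 to day 5.

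In ADAR+hnRNPC-targeted cells on day 5 the mRNAs lay on both sides of CTRL, and those that passed the adjusted p were lower. MT-CO3, encoding a core subunit of cytochrome c oxidase, stood at 337, 332 and 371 CPM against 668, 462 and 572 in CTRL and fell by 0.71 on the log2 scale (SE 0.29, adjusted p = 0.029). MT-TP stood at 16.9, 13.7 and 16.9 against 23.8, 27.2 and 32.1 CPM (log2 fold change -0.81 ± 0.25, adjusted p = 0.00371), and MT-ND3 at 90.2, 83.9 and 96.9 against 124, 109 and 133 CPM (-0.43 ± 0.16, adjusted p = 0.0141). In all 3 genes the groups did not overlap. These 3 of 19 passed where 74.4% of all genes tested did, a share below that of the genes at large.

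The other complex IV mRNAs did not pass, MT-CO1 at -0.32 ± 0.31 (adjusted p = 0.349) and MT-CO2 at -0.34 ± 0.25 (adjusted p = 0.217). Above 0, also without passing, were MT-ND1 at 0.38 ± 0.32 (adjusted p = 0.287), MT-ND5 at 0.37 ± 0.31 (adjusted p = 0.278) and MT-CYB at 0.26 ± 0.33 (adjusted p = 0.48), the first 2 of complex I and the last of complex III. The median of the 13 was -0.07, with 6 above and 7 below 0, against 0.05 over all genes.

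On day 4 of ADAR+hnRNPC targeting 0 of 19 passed the adjusted p. There same-numbered libraries did deviate together, and with a block within each day 4 of 19 rose, where 65.8% of all genes passed, namely MT-CYB (0.50 ± 0.15, adjusted p = 0.00411), MT-ND4 (0.50 ± 0.18, adjusted p = 0.0131), MT-ND5 (0.41 ± 0.16, adjusted p = 0.0275) and MT-TY (0.32 ± 0.14, adjusted p = 0.0445). With the library number as a block across days 0 passed.

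**Figure D2:**
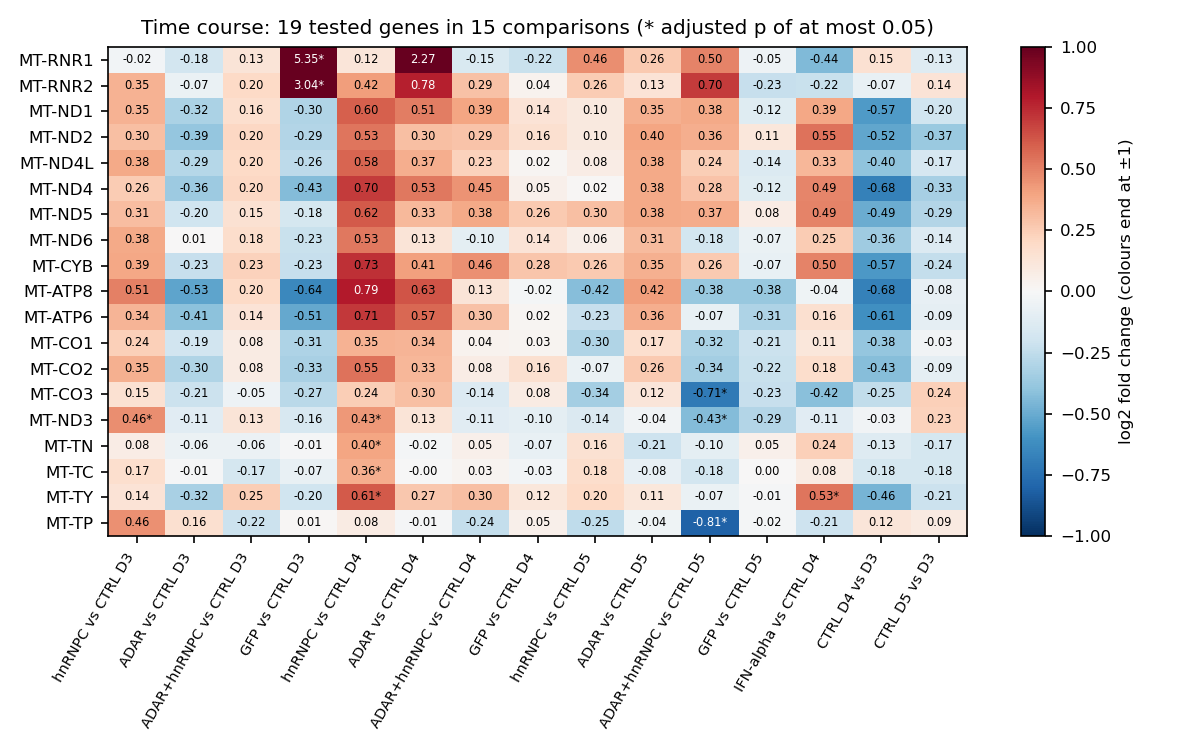
log2 fold changes (colour, ending at ±1, with the value written in each cell) of the 19 tested mitochondrial genes (rows) in the 15 comparisons of the time course (columns); an asterisk marks an adjusted p of at most 0.05. The column of hnRNPC against CTRL on day 4 is above 0 throughout, and that of ADAR+hnRNPC on day 5 runs from -0.81 for MT-TP to 0.70 for MT-RNR2.

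In CTRL cells treated with IFN-α, MT-TY alone passed the adjusted p (17.7, 11.4 and 18.9 against 13.4, 9.65 and 10.3 CPM, log2 fold change 0.53 ± 0.19, adjusted p = 0.0452), 1 of 19 where 20.5% of all genes did, and the groups overlapped. MT-CO3 stood at 414, 229 and 266 against 522, 320 and 374 CPM (-0.42 ± 0.29, adjusted p = 0.343), the lowest log2 fold change of the 13 mRNAs in that comparison, while MT-ND2 was the highest (0.55 ± 0.35, adjusted p = 0.293). MT-CO2 had 0.18 ± 0.25 (adjusted p = 0.676).

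Within a library, the share of MT-CO3 in the counts of the 13 mRNAs varied less between libraries of a group than its level did. This measure was chosen after the values had been seen. In CTRL libraries on day 4 the share was 20.2%, 19.7% and 20.9%, and with IFN-α it was 14.97%, 14.5% and 14.3%, or 20.3% ± 0.56 against 14.6% ± 0.333 (SD, n = 3). On day 5 it was 21.3%, 22.1% and 22.5% in CTRL cells and 17.5%, 16.8% and 16.8% in ADAR+hnRNPC-targeted cells (22.0% ± 0.629 against 17.05% ± 0.405). Shares make up a whole, so that a lower share of MT-CO3 goes with higher shares of other mRNAs. MT-ND5 and MT-CYB took larger shares in every library of these IFN-α and ADAR+hnRNPC groups than in CTRL of that day. The change was thus not confined to MT-CO3.

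The share was also lower, by 1.33 to 2.28 percentage points, in hnRNPC-targeted cells on all 3 days and in ADAR+hnRNPC-targeted cells on days 3 and 4. In 7 of 13 comparisons with CTRL of the same day the lower group did not overlap with CTRL; these are the 6 with hnRNPC targeting and IFN-α. In the other 6, those of ADAR and of GFP targeting, the groups overlapped. An exact permutation test of 3 against 3 libraries cannot go below p = 0.1, so that these differences are given as a description with no test. Overlap was not counted in this way for the shares of the other mRNAs. Separation from CTRL can therefore not be called particular to MT-CO3. Over the same libraries MT-CO1 took 52.6% ± 0.365 in CTRL and 54.7% ± 1.56 with IFN-α on day 4. It took 51.6% ± 1.94 and 52.9% ± 0.574 in CTRL and ADAR+hnRNPC-targeted cells on day 5.

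In the fractionation, whose cells carry STING, the share of MT-CO3 in whole cells was 17.2% and 18.4% in CTRL cells, 17.2% and 17.1% in hnRNPC-targeted cells, 16.3% and 16.2% in ADAR-targeted cells and 18.3% and 17.6% in ADAR+hnRNPC-targeted cells. There ADAR-targeted cells, which overlapped with CTRL in the time course, had the lowest shares and lay below both CTRL libraries, ADAR+hnRNPC-targeted cells overlapped with CTRL, and the hnRNPC-targeted libraries lay at or just below the lower CTRL library.

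**Figure D3:**
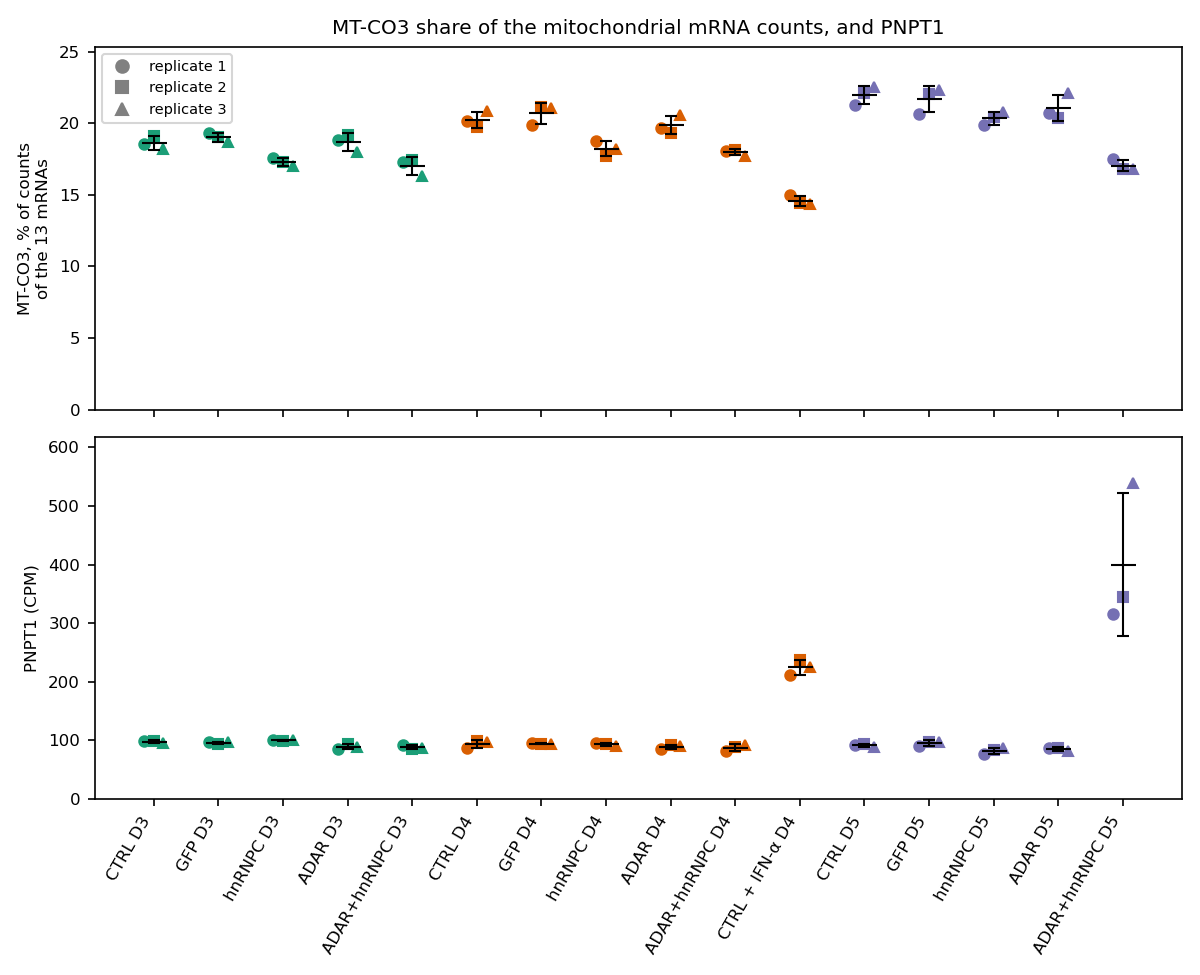
Share of MT-CO3 in the counts of the 13 mitochondrial mRNAs (upper panel, percent) and level of PNPT1 (lower panel, CPM), both from 0, for each of the 48 time-course libraries by group, with mean and SD (n = 3). The MT-CO3 share lies furthest below CTRL of its day with IFN-α (14.3% to 14.97% against 19.7% to 20.9%) and on day 5 of ADAR+hnRNPC targeting (16.8% to 17.5% against 21.3% to 22.5%), the groups in which PNPT1 is highest.

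The effect of joint targeting was tested as the interaction, the difference between ADAR+hnRNPC and hnRNPC targeting minus that between ADAR targeting and CTRL. On day 4 it was below 0 for all 13 mRNAs, from -1.29 to -0.54, with a median of -0.71 against 0.02 over all genes. Without the 2 libraries of high rRNA described next, of which ADAR library 1 enters this contrast, the 13 ran from -0.92 to -0.18 with a median of -0.42. MT-ND3 alone passed (-0.67 ± 0.22, adjusted p = 0.041), where 13.5% of all genes did, at 87.8, 86.5 and 108 CPM in ADAR+hnRNPC-, 162, 128 and 121 in hnRNPC-, 124, 98.3 and 110 in ADAR-targeted and 116, 90.1 and 98.2 in CTRL cells. Of these 12 libraries the 2 lowest had both genes targeted and the 2 highest hnRNPC alone. The call was lost without CTRL library 2 or 3, hnRNPC library 1, ADAR library 1 or 3, or ADAR+hnRNPC library 1 or 2, and also without both libraries of high rRNA (-0.58 ± 0.23, adjusted p = 0.076), while 10 of 19 members passed with a block within each day. On days 3 and 5 the interaction called 0 members, where 0% and 49.6% of all genes passed.

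The rRNAs were measured after Ribo-Zero Gold depletion, which removes mitochondrial as well as cytosolic rRNA, so that their counts are what remained. In 46 of the 48 time-course libraries MT-RNR1 (12S rRNA) lay between 14.5 and 30.6 CPM, with a median of 18.3, and MT-RNR2 (16S rRNA) between 146 and 373 CPM, with a median of 219. GFP-targeted library 2 of day 3 held 2290 CPM of MT-RNR1 and 4527 CPM of MT-RNR2, or 125 and 20.6 times these medians. ADAR-targeted library 1 of day 4 held 267 and 546 CPM, or 14.6 and 2.49 times.

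Neither library stood apart in its mRNAs, whose summed levels of 2648 and 3516 CPM lay within the range of the other 46. The rRNA calls of GFP against CTRL on day 3 (MT-RNR1 5.35 ± 1.00, adjusted p = 0.0323, and MT-RNR2 3.04 ± 0.59, adjusted p = 0.0344) rest on that single library: GFP libraries 1 and 3 had 18 and 17.5 CPM of MT-RNR1 against 19.7, 19.6 and 17.8 in CTRL, and without library 2 both fold changes turned to -0.10 with no call.

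**Figure D4:**
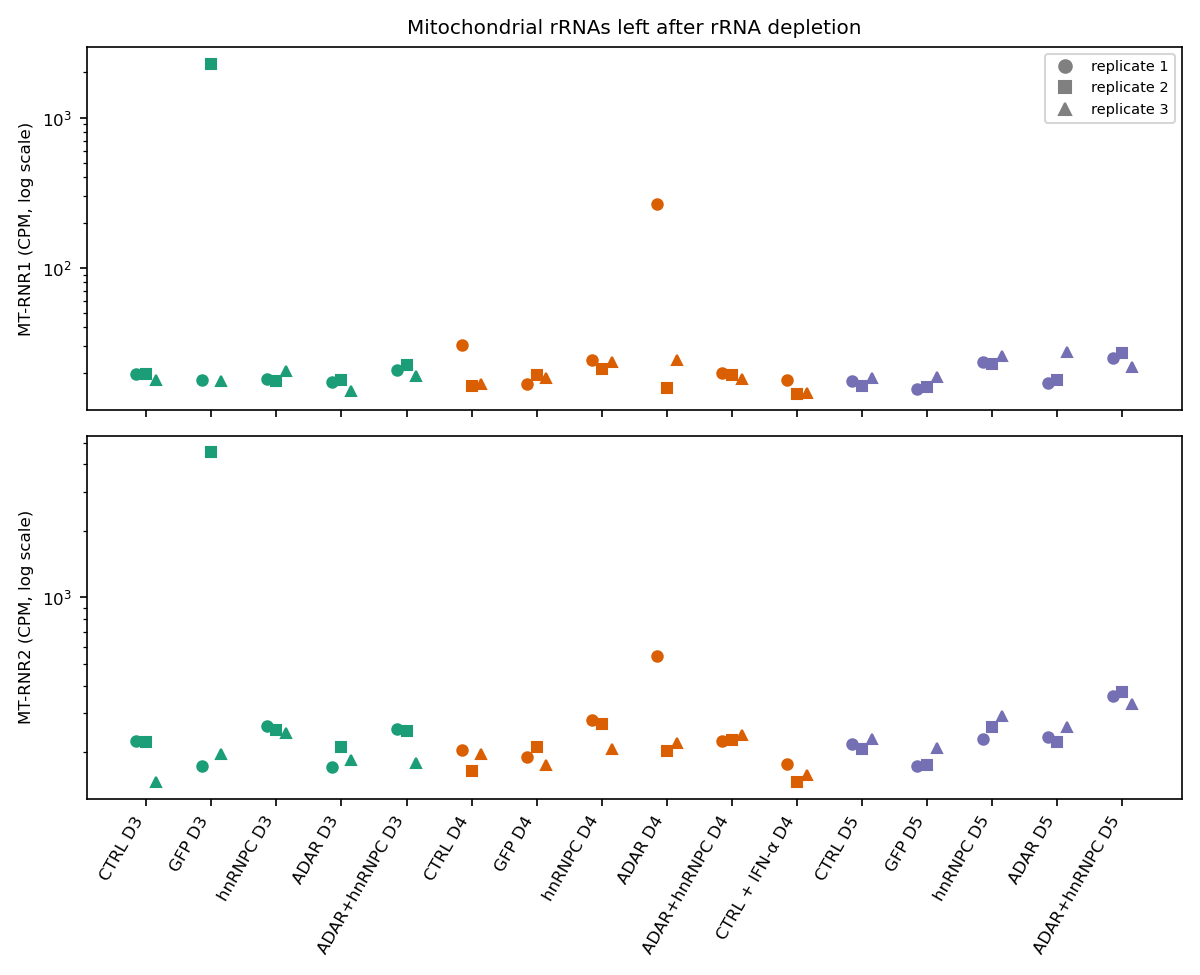
MT-RNR1 (upper panel) and MT-RNR2 (lower panel) in CPM on log axes, for each of the 48 time-course libraries by group; symbols mark libraries 1 to 3 and colours the day. GFP library 2 of day 3 and ADAR library 1 of day 4 stand above all others, and the 3 ADAR+hnRNPC libraries of day 5 (330 to 373 CPM of MT-RNR2) lie above the CTRL libraries of that day.

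These libraries also widened the error of both rRNAs in every comparison, since all groups share an estimate of the spread. MT-RNR2 stood at 360, 373 and 330 CPM in ADAR+hnRNPC-targeted cells on day 5 against 218, 206 and 229 in CTRL, without overlap, at 0.70 ± 0.54 (adjusted p = 0.244) with all libraries and 0.70 ± 0.13 (adjusted p = 1.44e-05) without these 2. MT-RNR1 there had 25.0, 27.2 and 21.7 against 17.6, 16.4 and 18.4 CPM, and in the fit without the 2 libraries 0.50 ± 0.17 (adjusted p = 0.00805).

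In that fit MT-RNR2 was also higher in hnRNPC-targeted cells on day 3 (0.35 ± 0.13, adjusted p = 0.0324) and day 4 (0.42 ± 0.13, adjusted p = 0.00716), and MT-RNR1 on day 5 (0.46 ± 0.17, adjusted p = 0.0152). MT-RNR2 of ADAR-targeted cells did not pass on day 4 (0.17 ± 0.15, adjusted p = 0.632) or day 5 (0.13 ± 0.13, adjusted p = 0.528). Leaving out these libraries was decided after their values had been seen.

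Candidate A-to-I editing sites within the rRNA genes are listed on the strand opposite to the rRNAs. Whether their reads nevertheless came from the rRNAs was not tested. The site table of the time course held 70 positions on chrM, all listed on the reverse strand, opposite to the rRNAs, 17 within MT-RNR1 and 53 within MT-RNR2, and that of the fractionation 28, all within MT-RNR2. G, which marks editing of an A, made up 0.043% to 0.860% of the reads at these sites per time-course library, against 1.89% to 9.29% at the listed sites of other chromosomes. The sites were picked by the study on these reads, so that no test was made.

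The G share at other sites followed the group, with medians of 2.03% in ADAR-targeted and 4.71% in CTRL cells on day 5. At the chrM sites the medians were 0.106% and 0.324%, with ranges of 0.0904% to 0.585% and 0.287% to 0.562% that overlapped. These shares rest on 2, 2 and 11 reads with G in the ADAR-targeted and 6, 10 and 8 in the CTRL libraries, too few to compare the medians. Reads at the chrM sites numbered 66653 in ADAR library 1 of day 4, 47568 in GFP library 2 of day 3 and 12233 in CTRL library 1 of day 4, followed by 7986 in ADAR library 3 of day 4 and by 754 to 2979 in the other 44. These totals cover only the sites with values in a library, whose number differed between libraries. Per such site the order of the first 2 was reversed. The mean depth was 7544 reads in MT-RNR1 and 3562 in MT-RNR2 for the GFP library. For ADAR library 1 it was 2136 and 1436. These are the 2 libraries of high rRNA.

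In the fractionation, every tested mitochondrial gene was lower in the cytosolic fraction. All 17 were called lower in each of 5 comparisons, where 12.6% (CTRL), 12% (hnRNPC), 8.02% (ADAR) and 9.08% (ADAR+hnRNPC) of 13650 genes were called lower in cytosol than in whole cells and 18.5% lower than in the nuclear and mitochondria-enriched fraction of hnRNPC-targeted cells. MT-CO1 stood at 1897 and 3054 CPM in whole CTRL cells and at 19.6 and 26.1 CPM in their cytosol. The 13 mRNAs together fell from 3497 and 6445 CPM to 45.4 and 61.3 CPM.

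The depth of the depletion differed between genes, which was not tested. Cytosolic counts were few for the genes of deepest depletion: the 2 CTRL libraries held 37 and 43 of MT-ND3, 27 and 24 of MT-TC and 15 and 13 of MT-TN. The rRNA counts are what remained after rRNA depletion. In CTRL cells the log2 fold change from whole cells to cytosol was -7.56 ± 0.33 for MT-ND3, -7.42 ± 0.31 for MT-TC, -6.91 ± 0.28 for MT-TN, -6.76 ± 0.39 for MT-CO1 and -6.46 ± 0.39 for MT-CO3. It was -5.88 ± 0.60 for MT-ND4, -5.65 ± 0.63 for MT-RNR2 and -4.26 ± 0.75 for MT-RNR1. MT-RNR1 was the least depleted gene in each of the 5 comparisons, down to -2.40 ± 0.70 in hnRNPC-targeted cells, where it stood at 46.3 and 15.7 CPM in whole cells and 5.87 and 5.86 CPM in cytosol.

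Nuclear and cytosolic reference RNAs moved far less. The nuclear long noncoding RNA MALAT1 had log2 fold changes from -0.57 to -2.57 over the 5 comparisons and NEAT1, a scaffold of nuclear paraspeckles, from -0.92 to -2.40. The cytosolic mRNAs of ACTB and GAPDH had 0.19 to 0.54 and 0.18 to 0.76.

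Over the 12 tested mRNAs the median depletion was -6.12 in CTRL, -4.59 in hnRNPC-, -4.57 in ADAR- and -6.09 in ADAR+hnRNPC-targeted cells, and the medians of all genes were 0.02, 0.0036, -0.0034 and 0.0056. It was -5.14 between cytosol and the nuclear and mitochondria-enriched fraction. The difference between these medians was not tested, and they moved with single libraries: the CTRL median was -6.77 without whole-cell library 1 and -4.96 without whole-cell library 2, and the hnRNPC median -5.60 without cytosolic library 1. The cytosolic levels overlapped between the groups. The summed mRNA was 45.4 and 61.3 CPM in CTRL, 75.3 and 52.5 in hnRNPC-, 44.2 and 76.7 in ADAR- and 39.7 and 56.1 CPM in ADAR+hnRNPC-targeted cells, and 0 members were called in any of the 3 comparisons with CTRL cytosol, where hnRNPC targeting called 0.418%, ADAR targeting 4.74% and both 7.94% of all genes.

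**Figure D5:**
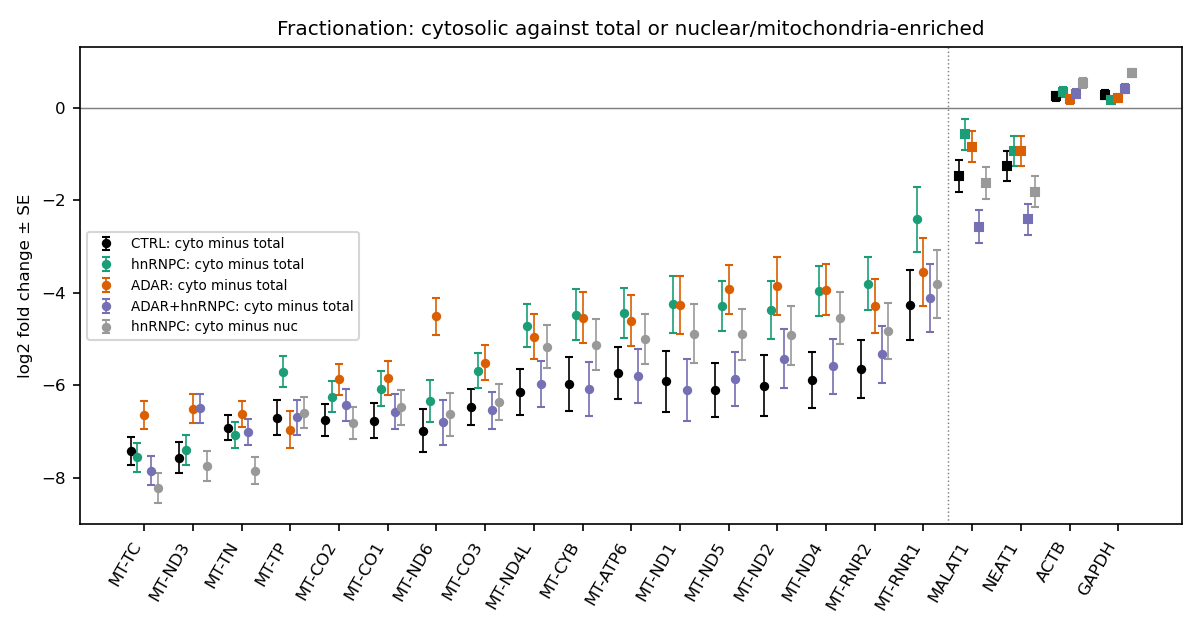
log2 fold change with its SE (vertical axis) of the 17 tested mitochondrial genes and of the reference RNAs MALAT1, NEAT1, ACTB and GAPDH (right of the dotted line) between cytosolic and whole-cell RNA of 4 targetings, and between cytosolic and nuclear/mitochondria-enriched RNA of hnRNPC-targeted cells (grey), with 2 libraries a group. Every mitochondrial gene lies below the reference RNAs' range of its comparison, from -8.22 for MT-TC to -2.40 for MT-RNR1, the latter close to MALAT1 and NEAT1 of other comparisons.

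The nuclear and mitochondria-enriched fraction of hnRNPC-targeted cells held 5718 and 3888 CPM of the 13 mRNAs against 3859 and 2942 CPM in whole cells. MT-TC reached 130 and 88.0 CPM there against 0.327 and 0.396 CPM in cytosol, the widest gap of any member (-8.22 ± 0.32, adjusted p = 1.36e-10). MT-ATP8, which failed the filter, was counted at 3.504 and 2.66 CPM in that fraction (181 and 135 counts) and with 2 and 0 counts in the cytosol of the same cells.

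In whole cells of the fractionation, calls of mitochondrial mRNAs turned on the CTRL libraries. In ADAR-targeted against CTRL whole cells 6 of 17 genes were called, all lower, where 2.81% of all genes were called: MT-ND4 (-1.81 ± 0.49, adjusted p = 0.0274), MT-ND5 (-1.77 ± 0.47, adjusted p = 0.0245), MT-ND2 (-1.72 ± 0.50, adjusted p = 0.0375), MT-ND1 (-1.64 ± 0.52, adjusted p = 0.0492) and MT-ND4L (-1.30 ± 0.37, adjusted p = 0.0329) of complex I, and MT-ATP6 (-1.46 ± 0.45, adjusted p = 0.0438). MT-ND4 stood at 66.3 and 75.9 CPM in ADAR-targeted cells against 88.3 and 410 CPM in CTRL, and MT-ND5 at 44.1 and 51.9 against 56.8 and 271 CPM.

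For both genes CTRL library 1 lay nearer to the ADAR-targeted libraries than to CTRL library 2. Without CTRL library 2, or without either ADAR-targeted library, 0 members were called, and 10 were without CTRL library 1. In hnRNPC-targeted whole cells 0 were called, where 0.637% of all genes were, with a median of -1.05 over the 12 mRNAs. Without CTRL library 1 it was -1.64 with 10 called, and without CTRL library 2 it was 0.031. In ADAR+hnRNPC-targeted whole cells 0 were called, where 4.5% of all genes were, but 3 were without CTRL library 1 and 6 without CTRL library 2.

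There MT-ND3 alone passed the adjusted p, at 68.4 and 60.8 CPM against 137 and 102 CPM in CTRL (-0.89 ± 0.23, adjusted p = 0.00763), 1 of 17 where 34.3% of all genes did. The groups did not overlap. In the time course, in cells of another clone, MT-ND3 was among the 3 lower genes of ADAR+hnRNPC targeting on day 5, but on day 4, the day of the fractionation, it stood at 87.8, 86.5 and 108 against 116, 90.1 and 98.2 CPM and did not pass (-0.11 ± 0.16, adjusted p = 0.562).

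Nuclear genes that serve mitochondrial RNA were read from lists by role. Of 10 genes for mitochondrial transcription and 16 for replication and maintenance of mitochondrial DNA, 0 were called in any comparison with CTRL in the time course, where 0% to 15.5% of all genes were. Of 18 tested genes for RNA processing and modification, HSD17B10, a subunit of the RNase P that cuts the 5′ ends of mitochondrial tRNAs, was called lower in 5 of the 6 comparisons with hnRNPC targeting, where 1.02% to 15.5% of all genes were called in either direction, by -1.07 ± 0.09 on day 3 and -1.27 ± 0.09 on day 4 of hnRNPC targeting. Its level was 14.5, 18.04 and 19.01 CPM on that day 4 against 40.5, 40.9 and 43.2 CPM in CTRL.

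TRIT1, which modifies the anticodon loop of some tRNAs, rose by 1.05 ± 0.04 in ADAR+hnRNPC-targeted cells on day 5 (259, 261 and 276 against 128, 128 and 130 CPM). It was the single gene of that list called higher in any comparison with CTRL, where up to 15.5% of all genes were called. In the fractionation TRIT1 was called higher in cytosol with ADAR targeting alone (1.25 ± 0.12) and with both targeted (1.43 ± 0.12). There 4.74% and 7.94% of all genes were called. In whole cells, without a call, it stood at 234 and 213 CPM with ADAR targeting alone. Both targeted gave 254 and 217 CPM, against 128 and 115 CPM in CTRL. Of 16 genes for stability and decay of mitochondrial RNA, REXO2, an oligoribonuclease, was called lower on day 5 of hnRNPC targeting (-1.24 ± 0.09) and on days 4 and 5 of ADAR+hnRNPC targeting (-1.12 ± 0.09 and -1.25 ± 0.09), where 7.68%, 4.91% and 15.5% of all genes were called. On day 5 it stood at 4.57, 4.93 and 4.58 CPM in hnRNPC-targeted, 4.31, 4.66 and 4.92 CPM in ADAR+hnRNPC-targeted and 11.3, 11.7 and 10.2 CPM in CTRL cells.

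PNPT1, the exoribonuclease of the complex that degrades mitochondrial double-stranded RNA, and an interferon-stimulated gene, stood at 315, 344 and 539 CPM on day 5 of ADAR+hnRNPC targeting against 91.9, 94.5 and 89.4 CPM in CTRL (2.12 ± 0.10). With IFN-α it stood at 212, 238 and 225 CPM against 86.8, 98.8 and 96.7 CPM (1.26 ± 0.10), and it was called in no other comparison with CTRL in the time course. In both groups the MT-CO3 share lay further below CTRL than in any other group, while the shares of MT-ND5 and MT-CYB lay above CTRL. The part of PNPT1 in these shares was not tested. In whole cells of the fractionation PNPT1 stood at 212 and 172 CPM with ADAR+hnRNPC targeting against 113.6 and 113.9 CPM in CTRL, while the MT-CO3 shares of these groups overlapped. Among 14 translation factors MTRF1L, a release factor, rose by 1.21 ± 0.07 on day 5 of ADAR+hnRNPC targeting (55.0, 54.3 and 59.8 against 23.4, 23.7 and 25.8 CPM), the 1 gene of that list called, where 15.5% of all genes were.

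Of 75 tested nuclear subunits of the respiratory complexes and ATP synthase, 4 were called lower on day 5 of ADAR+hnRNPC targeting and 0 in any other comparison with CTRL in the time course. In that comparison 15.5% of all 13193 genes were called in either direction and 615 of them lower, so that the share of the list is near that of the genes at large. The 4 are NDUFB6 (-1.19 ± 0.08), NDUFA2 (-1.10 ± 0.07) and NDUFA4 (-1.03 ± 0.08), of which NDUFA4 was first described in complex I and later placed with complex IV, and UQCRH of complex III (-1.06 ± 0.08). The median of the 75 in that comparison was -0.52, against -0.07 for the 13 mitochondrially encoded mRNAs and 0.05 over all genes.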

How the data were processed

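Gene counts were deposited by the authors as unnormalized counts per gene from featureCounts (uniquely mapped pairs, exons, GENCODE annotation of GRCh37) after STAR 2.5.4a alignment of TruSeq Stranded Total RNA Ribo-Zero Gold libraries. Counting of strand and of pairs that touch more than a single gene is not given in the sources used here, and mitochondrial genes abut, so that pairs across gene borders may be missing. The editing-site tables give deposited counts of reads per base and library. Gene names, positions and sequences came from the GENCODE annotation and genome of GRCh37 in use here, matched for 55538 of 57820 identifiers.

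Counts were tested with edgeR 4.0.16 (quasi-likelihood, TMM) in R 4.3.3, with all 48 or all 18 libraries in a fit, genes of average log2 CPM of at least 0.5, and Benjamini-Hochberg adjustment over all genes tested. Calls required a log2 fold change of 1 or more in either direction together with an adjusted p no higher than 0.05, and for interactions only the latter. SE is the log2 fold change over the square root of F. Errors of levels are SD over 3 or 2 libraries, and intervals from counts would cover counting error only. limma-voom (limma 3.58.1, used by the authors) and DESeq2 1.42.0 were alternatives. Others were total-count scaling, no filter, counts of nuclear copies added to the members, replicate blocks, GFP as control, fits of the compared groups alone and leaving out each library. The fit was tested on simulated data.

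Libraries of a group differed by more than sampling noise (chi-square per degree of freedom of 12.1 or more), so none was a mere resampling of another. Separate libraries made from the same RNA are not excluded by this measure. Same-numbered libraries were taken as pairs where the deviations from group means of every pair correlated above 0.1, with 3 pairs or more, which held in 8 of 15 time-course comparisons. The fractionation, with 2 pairs a comparison and correlations from -0.212 to 0.445, was not taken as paired on that ground. The members and lists were chosen with earlier results of these data known; genes named are the members that passed a call or filter, called genes of the lists, HNRNPC, ADAR and the 4 compartment references.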

Additional observations from a re-analysis of the deposited data

Results flagged for a closer look

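The interaction of ADAR and hnRNPC targeting on MT-ND3 on day 4 (-0.67 on the log2 scale, SE 0.22, adjusted p = 0.041 by edgeR) was singled out because the effect of hnRNPC targeting differed between cells with and without ADAR targeting: 0.43 without and, from the group levels, 86.5 to 108 against 98.3 to 124 CPM with it. It is 1 of 19 members, and 13.5% of all genes passed the same test.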

How the results depend on the processing

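Counts of members called changed mostly with 3 choices. Without a filter on low counts, 1 member was called for ADAR on day 4, hnRNPC on day 5, ADAR+hnRNPC on day 5, ADAR+hnRNPC whole cells and the interaction on day 3, 17 and 7 for the interaction on days 4 and 5, and 8 for hnRNPC whole cells. The interaction on day 4 gave 0 with total counts in place of TMM, 0 without both libraries of high rRNA, and 0 to 1 without single libraries. With the replicate block it gave 2, and with the block within each day 10, against 2 on day 5 (3 with the 12 libraries of day 5 alone). With GFP libraries as control on day 3, 3 were called for hnRNPC, 2 for ADAR and 2 for ADAR+hnRNPC targeting, with MT-RNR2 at -2.69 for hnRNPC and MT-RNR1 and MT-RNR2 at -5.22 and -2.84 for ADAR+hnRNPC targeting.

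For GFP against CTRL on day 3 there were 0 calls under the block within each day, without both libraries of high rRNA (MT-RNR1 -0.10 and MT-RNR2 -0.10), by limma-voom, by DESeq2 and with 2 groups in the fit, and 0 to 2 without single libraries, where MT-RNR1 ran from -0.10 to 5.92 and MT-RNR2 from -0.10 to 3.58. hnRNPC on day 4 had 0 to 1. For ADAR whole cells there were 0 by limma-voom, 3 by DESeq2, 0 with 2 groups in the fit and 0 to 10 without single libraries (median -1.97 to -0.33). hnRNPC whole cells had 0 to 10 (median -1.64 to 0.031) and ADAR+hnRNPC whole cells 0 to 6 (median -0.83 to 0.71), with MT-ND1 from -0.85 to 1.39, MT-ND4 from -1.04 to 1.18, MT-ND5 from -1.002 to 1.25 and MT-CYB from -0.81 to 1.29, the lower value without CTRL whole-cell library 1 and the higher without library 2. Medians from whole cells or the nuclear fraction to cytosol ran from -6.77 to -4.96 in CTRL, -5.60 to -4.33 in hnRNPC-targeted cells and -6.15 to -4.88 against the nuclear fraction. Where libraries were not taken as pairs, the block within each day moved the members past the adjusted p from 1 to 5 for hnRNPC on day 3, from 1 to 5 higher and 1 lower for IFN-α, and from 3 to 2 higher and 5 lower for ADAR+hnRNPC on day 5. The cause of these changes was not tested. With 2 libraries a group, leaving out 1 leaves a lone library that is assumed to vary like the other groups. Of the values for single genes, 5470 kept their direction and side of the threshold under other settings, 54 newly passed, 28 no longer did and 5 turned direction; without single libraries these numbers were 3082, 20, 34 and 6. The alternatives without both libraries of high rRNA and with the block within each day were chosen after seeing the data.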
